A study of Mus musculus with 12 samples.

Results

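The guanylate binding proteins (GBPs) are large GTPases of the dynamin superfamily that interferons induce. They assemble on the vacuoles and surfaces of intracellular parasites and bacteria, often together with the immunity-related GTPases (IRGs), and some of them promote activation of inflammatory caspases. Their genes are classical targets of IFNγ, which acts through the JAK kinases and induces further transcription factors such as IRF1. The 10 symbols of the family, *Gbp2*, *Gbp2b*, *Gbp3*, *Gbp4*, *Gbp5*, *Gbp6*, *Gbp7*, *Gbp8*, *Gbp9* and *Gbp10*, were taken by name out of 45565 symbols in the tables, and are described here in oligodendrocyte precursor cells (OPCs), the proliferating glial cells that give rise to myelinating oligodendrocytes. The members were chosen by name, on a view of the stimulated FPKM of *Gbp2b* and of the family in both genotypes. Differences between stimulated genotypes, and every comparison of *Gbp2b* that uses a stimulated library, are therefore given as values without a p. Members that passed the filter on low values only through stimulated libraries get no p for stimulation either. *Gbp2*, *Gbp3*, *Gbp5*, *Gbp7* and *Gbp9* keep a p for stimulation. It uses stimulated libraries that were in view at the choice, so it is a description and not an independent test.

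RNA came from primary OPCs of wild-type (WT) C57BL/6 mice (C57BL/6J in the methods) and of germline TNFR2-/- mice, in which every cell of the animal is TNFR2-/- by its label. Cells were isolated from the cortices of pups (days 2 to 5 in the labels, day 3 to 5 in the methods) with beads against PDGFRα and kept 3 days in vitro with PDGF-AA and FGF2. They were then non-stimulated (NS, vehicle only) or stimulated (St) for 3 h with TNF, IFNγ and IL1β at 25 ng/mL each, so that the share of each cytokine in a response cannot be told apart. Each of the 4 groups had 3 libraries, numbered 2, 3 and 4 in WT and 2, 4 and 5 in TNFR2-/-, and values of 3 libraries are listed in that order throughout. Nothing in the sources used here says how many pups a culture pooled.

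Library totals recovered from the values lay between 26886878 and 30335265 read pairs. Expression was given as FPKM, fragments per kilobase and scaled to the library total, from which whole read counts could be recovered for 26638 of 26638 genes above 0 in at least 2 libraries. The deposited number of bases per gene did not follow exon length, so FPKM levels are compared within a gene only. Levels of different genes are given as RPKM, reads per kilobase of annotated exon scaled to the library total. Filters and the added 0.5 FPKM in the tests below keep the FPKM unit, so their effect on a gene depends on that number of bases. The 8 OPC markers, such as *Pdgfra* and *Olig2*, summed to between 214102 and 283449 reads per library. The 14 microglia markers summed to between 21 and 61 reads per library, with *Fcrls* at 0 in all 12. The TNFR2 gene *Tnfrsf1b* (ENSMUSG00000028599) had more reads in the libraries labeled TNFR2-/- than in WT. It had 15, 12 and 24 reads in WT NS and 322, 346 and 213 reads in the libraries labeled TNFR2-/- NS (log2 difference 2.35 ± 0.21 SE, adjusted p = 0.0013), and 145, 61 and 105 against 282, 356 and 290 reads after stimulation (1.28 ± 0.21, adjusted p = 0.016). The stimulated difference did not pass the test without WT St library 3 (1.07, adjusted p = 0.055), WT St library 4 (1.31, adjusted p = 0.066) or TNFR2-/- St library 5 (1.30, adjusted p = 0.054). Gene totals do not show which exons were read, so TNFR2-/- below stands for the libraries labeled so and every direction between genotypes rests on those labels.

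The 10 genes lie in 2 clusters (GRCm38, GENCODE M21). The chromosome 3 cluster spans 142493978 to 142638008 on the plus strand. It holds *Gbp5* (ENSMUSG00000105504, 142493978 to 142522344), *Gbp7* (ENSMUSG00000040253, 142530342 to 142550149), *Gbp3* (ENSMUSG00000028268, 142560026 to 142573209), *Gbp2b* (ENSMUSG00000040264, 142594847 to 142619179) and *Gbp2* (ENSMUSG00000028270, 142620602 to 142638008). On chromosome 5, between 105014150 and 105293698 on the minus strand, lie *Gbp8* (ENSMUSG00000034438, 105014150 to 105139540), *Gbp9* (ENSMUSG00000029298, 105077630 to 105139539), *Gbp4* (ENSMUSG00000079363, 105115767 to 105139586), *Gbp10* (ENSMUSG00000105096, 105215699 to 105239533) and *Gbp6* (ENSMUSG00000104713, 105270702 to 105293698). Spans of *Gbp8*, *Gbp9* and *Gbp4* overlap on the same strand.

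**Figure D1:**
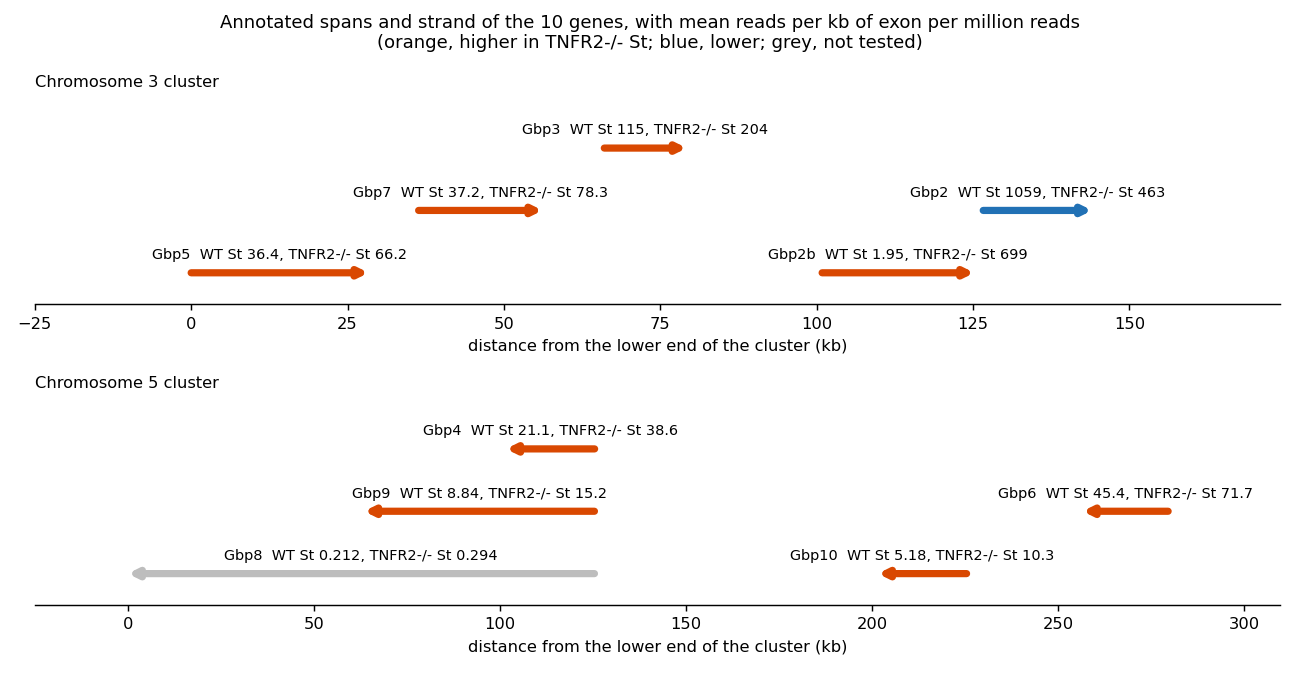
Maps of the chromosome 3 cluster and the chromosome 5 cluster, drawn to scale as distance in kb from the lower end of each. Arrows give annotated span and strand (orange for a higher estimate in TNFR2-/- St, blue for a lower one, grey for *Gbp8*, not tested), the numbers are mean RPKM (reads per kb of exon, scaled to the library total) in stimulated (St) libraries of each genotype (n = 3), and *Gbp2b* and *Gbp2* at the right of the upper map differ in opposite directions, 1.95 against 699 and 1059 against 463.

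Reads of near-identical family members can be split or lost in counting, so sequences of 100 bases, the length of a read, were compared between annotated transcripts. *Gbp2* and *Gbp2b* shared 0 of their 2514 and 2724 such sequences with any gene. Only exact matches between reference transcripts were compared. Whether reads with mismatches were placed on the wrong gene of this pair was not tested. *Gbp3*, *Gbp4*, *Gbp5* and *Gbp9* shared under 2%, *Gbp8* 4.39% and *Gbp7* 10.01%. *Gbp6* shared 64.5% and *Gbp10* 73.5%, mostly with each other and with the overlapping gene model *Gm43302*, so the division of reads between *Gbp6* and *Gbp10* is uncertain in what follows.

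Promoters are shown because the family was read here 3 h after IFNγ, IL1β and TNF, whose signals end on known DNA motifs. RefSeq promoters (GRCm38.p6, plus strand) matched 5 of the 10 members, all of the chromosome 3 cluster, with 2 start sites for *Gbp3*. *Gbp4*, *Gbp6*, *Gbp8*, *Gbp9* and *Gbp10* were not matched. Over the 250 bases before each start, 3 motifs were searched on both strands: the gamma-activated site of IFNγ-induced genes (TTCNNNGAA, present in 7.02% of 32851 promoters), the core of the interferon-stimulated response element bound by IRFs (GAAA, any 2 bases and GAAA, 2.98%) and the kappaB motif of NF-κB (GGGA, any 4 bases and CC, 17.6%). Capitals mark matches. Bases from 200 before the start onward are shown, ending earlier for *Gbp5* and *Gbp2*, where an annotated exon begins upstream of the RefSeq start.
Gbp2b: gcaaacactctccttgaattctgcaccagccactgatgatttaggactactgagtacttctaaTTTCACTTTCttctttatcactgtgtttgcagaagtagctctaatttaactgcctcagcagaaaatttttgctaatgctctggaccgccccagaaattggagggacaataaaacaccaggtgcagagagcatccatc
Gbp2: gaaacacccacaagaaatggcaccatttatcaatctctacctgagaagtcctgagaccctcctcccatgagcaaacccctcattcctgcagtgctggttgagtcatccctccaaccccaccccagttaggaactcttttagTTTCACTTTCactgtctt
Gbp3: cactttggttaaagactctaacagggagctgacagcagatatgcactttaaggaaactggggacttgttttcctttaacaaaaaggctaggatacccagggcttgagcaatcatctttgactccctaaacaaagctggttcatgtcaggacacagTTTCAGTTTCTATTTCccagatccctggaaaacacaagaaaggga
Gbp7: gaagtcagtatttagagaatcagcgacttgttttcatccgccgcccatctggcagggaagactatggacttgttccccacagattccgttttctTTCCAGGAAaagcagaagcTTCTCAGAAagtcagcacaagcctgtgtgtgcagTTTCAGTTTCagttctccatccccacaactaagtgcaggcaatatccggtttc
Gbp5: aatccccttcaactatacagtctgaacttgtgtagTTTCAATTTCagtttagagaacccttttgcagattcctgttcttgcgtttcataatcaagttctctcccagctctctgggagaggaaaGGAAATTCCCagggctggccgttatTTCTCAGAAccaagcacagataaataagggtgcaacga
These stretches lie at chr3:142594647-142594846, chr3:142620463-142620621, chr3:142559844-142560043, chr3:142530136-142530335 and chr3:142496734-142496919. All 5 genes held an interferon-stimulated response element match, and only *Gbp7* and *Gbp5* of the 5 also held gamma-activated site matches. *Gbp2b* and *Gbp2* carried the same 10 letters, TTTCACTTTC, but at -137 to -128 in *Gbp2b* and at -59 to -50 in *Gbp2*. In *Gbp3*, a pair of matches overlapped at -45 to -36 and -39 to -30, and its other start, at 142560356, had 0 matches in the window. *Gbp7* had gamma-activated site matches at -106 to -98 and -87 to -79 and a response element match at -53 to -44. *Gbp5* had gamma-activated site matches at -245 to -237, outside the stretch shown, and at -52 to -44, a response element match at -165 to -156 and the one kappaB match in the 5 genes searched, at -77 to -68. A match is a description of letters, not evidence of binding.

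Which members responded to the cytokines was tested with limma on log2(FPKM + 0.5) across 18083 genes, with Benjamini-Hochberg adjustment over all of them. Calls needed a difference of 1.5-fold or more on this scale, an adjusted p no higher than 0.05 and an average over the libraries of 1 FPKM or more. The added 0.5 FPKM shrinks the fold change of genes near 0, so folds of mean FPKM are given beside it. In all, 9 members passed the filter of a mean of 0.1 FPKM, and *Gbp8* did not. The FPKM of *Gbp8* rests on 7520 bases against 3443 bases of annotated exon, so its place under the filter depends on this unit. *Gbp2*, *Gbp3*, *Gbp5*, *Gbp7* and *Gbp9* were called higher in WT St than in WT NS, where 4.59% of all genes were, and higher in TNFR2-/- St than in TNFR2-/- NS, where 5.42% were. St and NS libraries did not overlap for any of the 9, as for 13.7% of all genes in WT and 12.7% in TNFR2-/- in that direction. The median log2 fold change of the 9 was 5.18 in WT and 6.50 in TNFR2-/-, against -0.055 and -0.11 for all genes. *Gbp2b*, *Gbp4*, *Gbp6* and *Gbp10* averaged under 0.1 FPKM over the 6 NS libraries and passed the filter through their stimulated libraries. They had to differ to be admitted, so their values are given without a test and the counts and median of the 9 are a description. Calls of the remaining members rest on stimulated values in view when the family was chosen, and are no independent test. In bulk RNA, more cells with a transcript and more transcript per cell cannot be told apart.

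**Figure D2:**
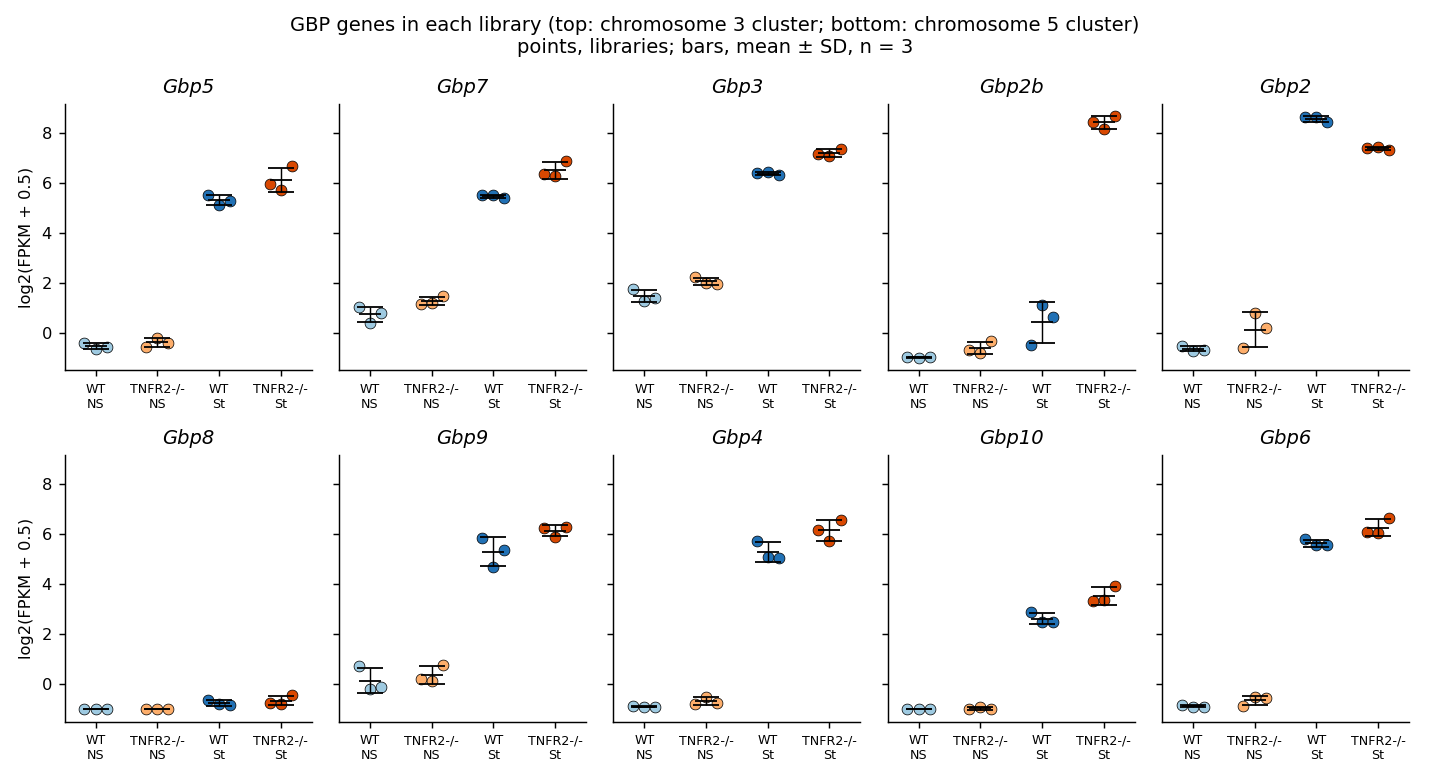
Expression of each member in all 12 libraries, as log2(FPKM + 0.5), with the mean and SD of 3 libraries. Every stimulated library lies above every NS library of its genotype for each member, *Gbp8* near the floor included, and *Gbp2b* is the member whose stimulated groups are farthest apart. Heights of different members are not comparable in FPKM.

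*Gbp2*, whose lipid-anchored product is recruited to parasite and bacterial compartments, showed the largest WT response of the family. It went from 0.191, 0.107 and 0.120 FPKM (40, 20 and 25 reads) in WT NS to 400.2, 399 and 347 FPKM (83994, 83476 and 72759 reads) in WT St. *Gbp2* rose by 9.22 ± 0.26 (log2 fold change ± SE, adjusted p = 4.34e-09), a 2746-fold difference of means. In TNFR2-/- libraries it went from 0.162, 1.21 and 0.643 FPKM (34, 256 and 136 reads) to 167, 172 and 161 FPKM (34972, 36341 and 32307 reads). There it rose by 7.26 ± 0.26 (adjusted p = 1.79e-08), 248-fold, from a baseline that was lowest in culture 2 and highest in culture 4.

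*Gbp2b*, the mouse GBP1 in older naming, lies next to *Gbp2* and its product also marks parasite vacuoles. It had 1, 0 and 2 reads in WT NS and 37, 279 and 180 reads in WT St (0.216, 1.63 and 1.05 FPKM). Over the 3 libraries the WT ratio was 159 (95% interval 54.2 to 775, counting error only). TNFR2-/- NS libraries had 21, 13 and 52 reads and TNFR2-/- St libraries 59491, 49174 and 66278 reads (348, 286 and 406 FPKM), a ratio of 2074 (1679 to 2593). All stimulated libraries were above all NS libraries of their genotype, and the highest WT St library, at 279 reads, was far below the lowest TNFR2-/- St library, at 49174. On the log2 scale the WT difference was 1.40 ± 0.32 SE and the TNFR2-/- difference 9.02 ± 0.32.

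*Gbp3* had the highest NS level of the family per kilobase of exon in both genotypes. WT libraries went from 2.83, 1.90 and 2.15 FPKM to 84.1, 85.6 and 78.6 FPKM, and TNFR2-/- libraries from 4.17, 3.47 and 3.38 FPKM to 141, 135 and 164 FPKM. It rose by 4.91 ± 0.13 in WT (36.1-fold, adjusted p = 2.51e-09) and by 5.14 ± 0.13 in TNFR2-/- (39.9-fold, adjusted p = 1.61e-09). *Gbp7*, linked to delivery of oxidase and autophagy components to bacteria, followed a like course from a measurable baseline. It went from 1.54, 0.827 and 1.21 FPKM to 44.8, 44.9 and 41.6 FPKM in WT (4.73 ± 0.19, 36.7-fold, adjusted p = 4.49e-08). In TNFR2-/- it went from 1.71, 1.81 and 2.28 FPKM to 81.7, 76.2 and 118 FPKM (5.23 ± 0.19, 47.6-fold, adjusted p = 1.79e-08). *Gbp5*, which promotes inflammasome assembly and like *Gbp2* and *Gbp2b* encodes a lipid-anchored protein, started lower. Its 47, 23 and 31 reads in WT NS became 8428, 6350 and 6985 in WT St (5.85 ± 0.22, 209-fold, adjusted p = 2.70e-08), and its 33, 70 and 47 reads in TNFR2-/- NS became 11300, 9726 and 17806 (6.50 ± 0.22, 266-fold, adjusted p = 1.30e-08).

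In the chromosome 5 cluster, *Gbp4* and *Gbp6* had at most 32 reads in any library without cytokines. *Gbp4* had 5, 3 and 4 reads in WT NS and 6356, 3978 and 3932 in WT St, a difference of 6.20 ± 0.22 with a read ratio of 1145 (95% interval 655 to 2217). Its 9, 25 and 12 reads in TNFR2-/- NS became 8548, 6294 and 10757, a difference of 6.84 ± 0.22 with a read ratio of 567 (425 to 775). *Gbp6* had 10, 5 and 6 reads in WT NS and 9077, 7614 and 7692 in WT St (a difference of 6.52 ± 0.16). *Gbp6* had 7, 32 and 30 reads in TNFR2-/- NS and 11211, 10823 and 15775 in TNFR2-/- St (6.93 ± 0.16), with read ratios of 1118 (731 to 1807) in WT and 559 (441 to 718) in TNFR2-/-. For both genes the 2 scales ordered the genotypes differently, with the larger response in TNFR2-/- on log2(FPKM + 0.5) and in WT as a ratio of reads, from NS levels of at most 32 reads.

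*Gbp10*, which shares most of its sequence with *Gbp6*, had 0 reads in all WT NS libraries and 732, 539 and 538 reads in WT St. It was at least 193-fold higher against a floor of 3 reads per library (3.63 ± 0.17 on the log2 scale). In TNFR2-/- it had 0, 3 and 0 reads in NS and 994, 1029 and 1492 in St (4.51 ± 0.17), a read ratio of 1195 (408 to 5795). *Gbp9* was spread between WT libraries in both conditions, at 1.15, 0.370 and 0.423 FPKM in NS and 58.1, 25.5 and 40.6 FPKM in St (5.18 ± 0.32, 64.1-fold, adjusted p = 1.23e-06). In TNFR2-/- it went from 0.661, 0.598 and 1.22 FPKM to 76.2, 59.5 and 77.3 FPKM (5.77 ± 0.32, 85.8-fold, adjusted p = 4.72e-07). *Gbp8* stayed under the filter, with 0 reads in all 6 NS libraries. It had 34, 17 and 15 reads in WT St and 22, 17 and 50 reads in TNFR2-/- St, at least 7.04-fold and at least 10.2-fold above the floor of 3 reads per library.

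Because libraries with the same number within a genotype deviated together, the response could also be read culture by culture. *Gbp3* rose by 4.67, 5.16 and 4.90 in the WT cultures and by 4.92, 5.09 and 5.40 in the TNFR2-/- cultures, which overlap. *Gbp2* rose by 9.18, 9.36 and 9.13 in WT and by 7.98, 6.66 and 7.15 in TNFR2-/-, with every WT culture above every TNFR2-/- culture. For *Gbp2b* the responses were 0.50, 2.09 and 1.60 against 9.13, 8.96 and 8.99. *Gbp10* (3.90, 3.49 and 3.49 against 4.32, 4.27 and 4.94) and *Gbp9* (5.15, 4.90 and 5.48 against 6.05, 5.77 and 5.50) lay higher in each TNFR2-/- culture than in any WT culture on this scale. As plain folds of FPKM the *Gbp9* cultures overlapped, with TNFR2-/- culture 5 at 63.2 and WT cultures 3 and 4 at 68.8 and 96.0. Cultures overlapped on the log2 scale for *Gbp4*, *Gbp5*, *Gbp6*, *Gbp7* and *Gbp8*. The share of all genes whose cultures separate was not counted. These responses use stimulated values in view at the choice of the family, so nothing is read from the separations.

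**Figure D3:**
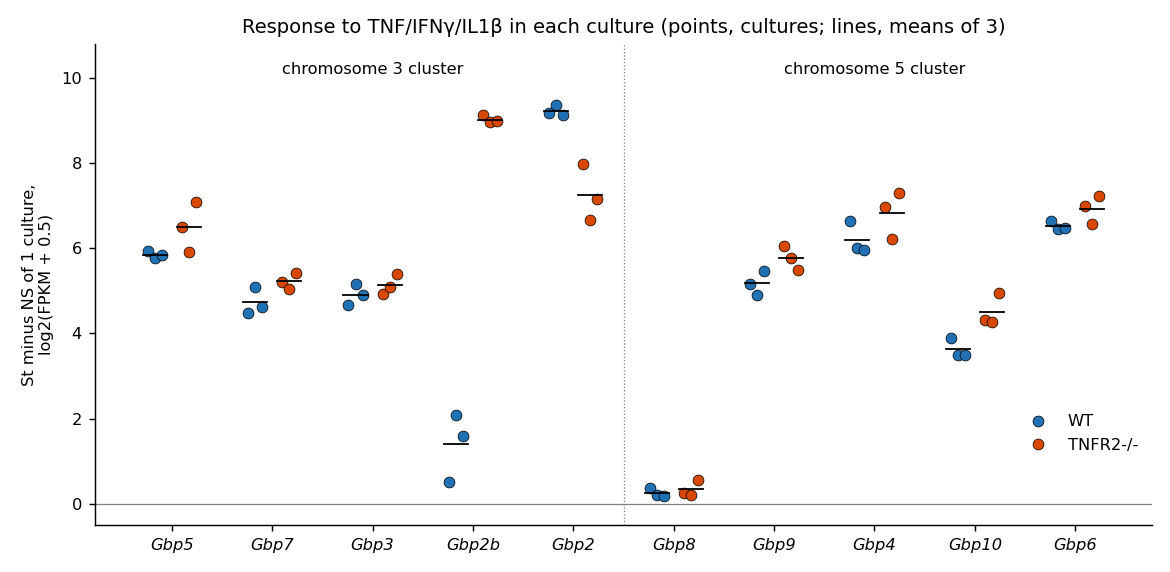
Difference between the stimulated and the NS library of each culture, on the log2(FPKM + 0.5) scale, for the 10 members in chromosomal order (3 cultures per genotype, lines are means). *Gbp2b* is at 0.50 to 2.09 in WT and 8.96 to 9.13 in TNFR2-/- cultures, *Gbp2* is higher in WT, and *Gbp8* stays under 1 in all.

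Whether the genotypes differed before stimulation was asked in the NS libraries, a comparison that did not enter the choice of the family. Only 1 member of 9, *Gbp3*, was called, against 2.9% of all genes, and the members' median difference was 0.24 against 0.038 for all genes. *Gbp3* was higher in TNFR2-/- NS, at 4.17, 3.47 and 3.38 FPKM against 2.83, 1.90 and 2.15 FPKM (0.59 ± 0.13, 1.60-fold, adjusted p = 0.024). Its value lies at the 1.5-fold threshold, and it was not called without WT NS library 3 (0.48, adjusted p = 0.095), without WT NS library 4 (0.56, adjusted p = 0.082), without TNFR2-/- NS library 2 (0.50, adjusted p = 0.068) or without TNFR2-/- NS library 5 (0.64, adjusted p = 0.058). *Gbp7* was at 0.54 ± 0.19 (1.62-fold, adjusted p = 0.085) with no overlap between groups, and *Gbp2* at 0.77 ± 0.26 (adjusted p = 0.077) with groups that overlapped, since TNFR2-/- NS library 2 had 34 reads and WT NS library 2 had 40. Without TNFR2-/- NS library 2, *Gbp2* passed the test (1.13, adjusted p = 0.018).

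Groups did not overlap for 4 of the 9 members, *Gbp2b*, *Gbp3*, *Gbp4* and *Gbp7*, all higher in TNFR2-/- NS, as for 19.9% of all genes in that direction. *Gbp2b* had more reads in each TNFR2-/- NS library than in any WT NS library, 86 in all against 3, a read ratio of 27.5 (95% interval 9.09 to 136). At these levels of at most 0.301 FPKM the limma difference was 0.38 ± 0.32 (adjusted p = 0.467), and the interval of the difference ran from -0.34 to 1.10. Other low members had read ratios of 3.67 (1.91 to 7.61) for *Gbp4*, 3.15 (1.91 to 5.40) for *Gbp6*, 1.42 (1.10 to 1.85) for *Gbp5* and 1.26 (0.899 to 1.78) for *Gbp9*. These intervals cover counting error only, and none of the 4 passed limma's test across libraries (log2 differences 0.16 to 0.24, adjusted p from 0.391 to 0.672). Log2 differences were positive for the 9 members tested in the NS libraries on the scaling used, and those of *Gbp5*, *Gbp9* and *Gbp10* turned negative with replicate number as a block.

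Markers of other cells moved with genotype in the same libraries. Astrocyte markers were higher in TNFR2-/- for 7 of 7 genes both in NS (median 0.86, 1 called, 36868 to 76591 summed reads against 21304 to 28330) and in St (median 1.01, 1 called, 39816 to 71887 summed reads against 23711 to 27184). Of all genes, 1.62% were called higher in TNFR2-/- in NS and 1.18% in St. Markers of mural cells and fibroblasts were lower for 5 of 6 tested genes in both conditions, with medians of -0.77 and -1.22. They summed to 6850 to 26142 reads in WT NS, 3283 to 16307 reads in TNFR2-/- NS, 9710 to 23804 reads in WT St and 2174 to 14045 reads in TNFR2-/- St. No marker of either list was at 0 in all libraries. Their part in the GBP differences between genotypes was not tested.

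In stimulated libraries, the 8 tested members other than *Gbp2* had the higher mean in TNFR2-/-. Of the 9 members tested, 5 met the call rule, 4 higher and 1 lower, where 1.18% and 0.614% of all genes did, and since this is the comparison behind the choice of the family nothing is read from that count. *Gbp2b* differed by 8.01 ± 0.32 SE and *Gbp2*, at 167 ± 5.43 FPKM (SD, n = 3) against 382 ± 30.5 FPKM, by -1.19 ± 0.26. *Gbp7* differed by 1.04 ± 0.19 (92.1 ± 22.9 against 43.8 ± 1.88 FPKM), *Gbp10* by 0.91 ± 0.17 (11.4 ± 3.04 against 5.73 ± 1.06 FPKM) and *Gbp3* by 0.82 ± 0.13 (147 ± 15.3 against 82.8 ± 3.69 FPKM). *Gbp4* (0.86 ± 0.22), *Gbp9* (0.84 ± 0.32), *Gbp5* (0.81 ± 0.22) and *Gbp6* (0.63 ± 0.16) were not called. Of the 9 members tested, TNFR2-/- and WT libraries overlapped for *Gbp4* and not for the other 8. They also overlapped for *Gbp8*, which was not tested. Of all genes tested, 32.7% had no overlap in either direction, and nothing is read from setting the members beside that share either. Leaving out a stimulated library moved the number called to between 1 (without WT St library 3 or without WT St library 4) and 8 (without TNFR2-/- St library 4), and it was 2 without TNFR2-/- St library 5.

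**Figure D4:**
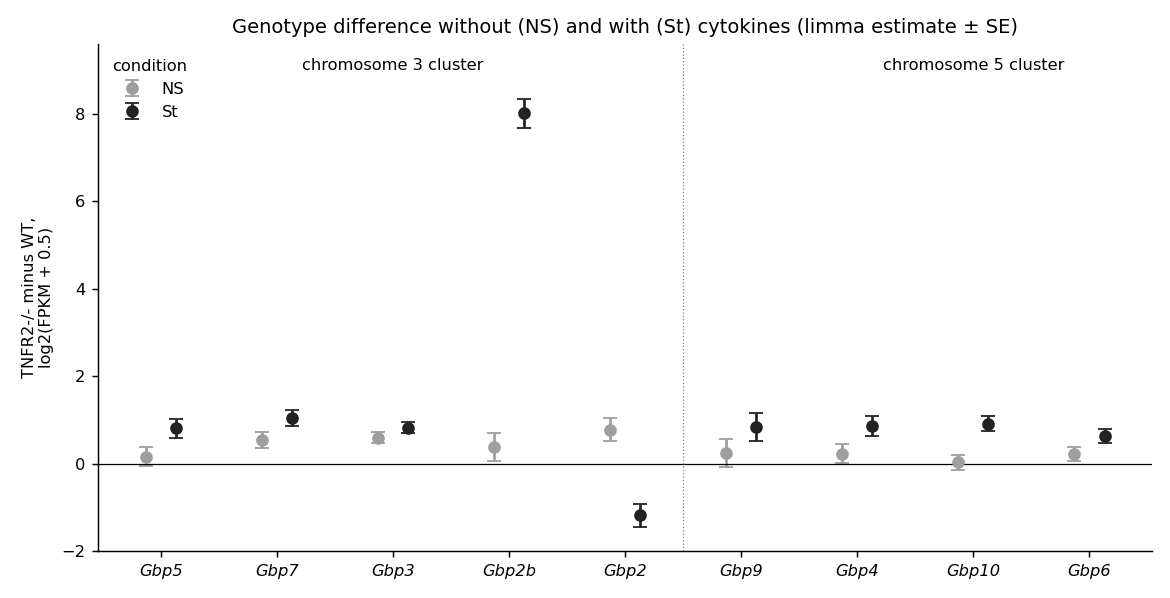
Difference between TNFR2-/- and WT on the log2(FPKM + 0.5) scale in NS (grey) and St (black) libraries, as limma estimates ± SE over 3 libraries per group, for the 9 members tested. *Gbp2b* stands at 8.01 and *Gbp2* at -1.19 in St, the other 7 members between 0.63 and 1.04, and NS differences between 0.027 and 0.77.

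The genotype difference of the response itself, the interaction, was 7.63 ± 0.46 for *Gbp2b*. It uses the values on which the family was chosen, so nothing is read from its being the 1 gene of 18083 (0.00553%) that met the call rule, and with voom it did not meet it (4.65 ± 1.96). *Gbp2* stood at -1.96 ± 0.37, and the other 7 members between 0.23 (*Gbp3*) and 0.88 (*Gbp10*). *Gbp2* did not meet the call rule in the main fit and passed the p threshold in 2 of 25 alternatives. These were culture as a random effect and leaving out TNFR2-/- NS library 2. With culture as a fixed block or replicate number as a block *Gbp2* did not pass, at the same estimate of -1.96 as with the random effect. Nothing is read from these calls either. The comparisons of both genotypes share libraries: the interaction uses all 12, and each response uses the St libraries that also enter the genotype difference.

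The neighboring genes *Gbp2* and *Gbp2b*, whose pairing was chosen after their values were seen, were in the opposite order of abundance in stimulated libraries of the 2 genotypes. *Gbp2b* made up 0.044%, 0.333% and 0.247% of the reads of the pair in WT St and 63.0%, 57.5% and 67.2% in TNFR2-/- St. Summed per kilobase of exon, the pair reached 1110, 1108 and 963 in WT St (mean 1061 ± 84.4 SD, n = 3) and 1165, 1053 and 1265 in TNFR2-/- St (1161 ± 106), ranges that overlap. In NS the pair summed to 0.541, 0.296 and 0.355 in WT and to 0.696, 3.51 and 2.39 in TNFR2-/-, which do not overlap. All 10 members together took 19.3 ± 5.08 RPM (SD, n = 3, reads scaled to the library total) in WT NS and 35.4 ± 3.66 in TNFR2-/- NS, and 3989 ± 308 in WT St and 5515 ± 835 in TNFR2-/- St. Without *Gbp2b* the stimulated totals were 3984 ± 310 and 3543 ± 506 RPM, and the ranges overlapped.

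**Figure D5:**
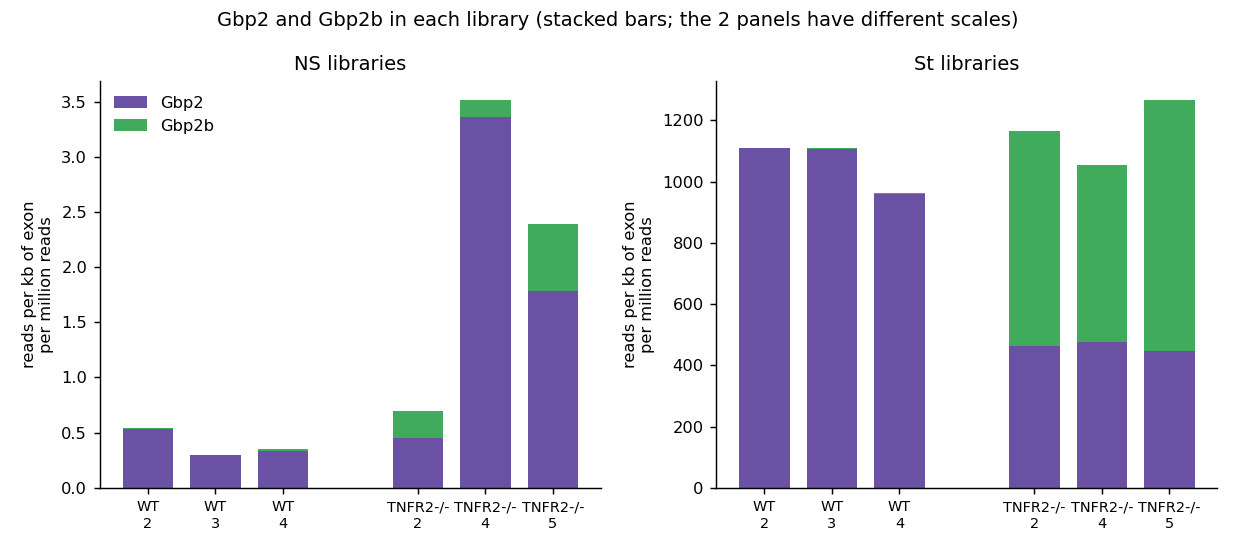
RPKM (reads per kb of exon, scaled to the library total) of *Gbp2* and *Gbp2b*, stacked for each library, NS at left and St at right on separate axes. The stimulated pair sums to 963 to 1110 in WT, nearly all *Gbp2*, and to 1053 to 1265 in TNFR2-/- libraries, where *Gbp2b* gives 54.7% to 64.6% of the sum.

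Per kilobase of exon, the WT St order began with *Gbp2* at 1059 ± 84.5 RPKM (SD, n = 3), followed by *Gbp3* at 115 ± 5.13. *Gbp6* (45.4 ± 4.57), *Gbp7* (37.2 ± 1.60) and *Gbp5* (36.4 ± 5.31) came next, of which *Gbp7* and *Gbp5* did not differ beyond their spread. Below them lay *Gbp4* at 21.1 ± 6.14, *Gbp9* at 8.84 ± 3.49, *Gbp10* at 5.18 ± 0.956, *Gbp2b* at 1.95 ± 1.44 and *Gbp8* at 0.212 ± 0.101, and the libraries of *Gbp9* and *Gbp10* overlapped. TNFR2-/- St libraries had *Gbp2b* first at 699 ± 121, then *Gbp2* at 463 ± 15.1 and *Gbp3* at 204 ± 21.3. *Gbp7* (78.3 ± 19.5), *Gbp6* (71.7 ± 17.9) and *Gbp5* (66.2 ± 23.97) overlapped one another, and *Gbp4* (38.6 ± 11.1) overlapped *Gbp5*. *Gbp9* at 15.2 ± 2.13 and *Gbp10* at 10.3 ± 2.75, which overlapped, and *Gbp8* at 0.294 ± 0.185 closed the order. Before stimulation *Gbp3* led in both genotypes, at 3.19 ± 0.664 in WT and 5.10 ± 0.600 in TNFR2-/-, and *Gbp8* was at 0 in both.

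Of 15 regulators upstream of GBP genes, 14 were called higher with stimulation in WT and 14 in TNFR2-/-, with medians of 1.87 and 2.38. Of all genes, 4.59% in WT and 5.42% in TNFR2-/- were called higher. *Irf1* rose by 7.28 ± 0.13 in WT (adjusted p = 1.25e-10) and by 6.69 ± 0.13 in TNFR2-/- (adjusted p = 3.01e-10). The feedback inhibitor *Socs1* rose by 5.69 ± 0.16 and 6.26 ± 0.16. The exception was the ligand-binding receptor chain *Ifngr1*, at -0.05 ± 0.14 and -0.37 ± 0.14. In NS libraries *Irf1* was higher in TNFR2-/- (0.66 ± 0.13, adjusted p = 0.019). Between stimulated genotypes the 15 had a median of 0.011, from -0.25 for *Irf2* to 0.50 for *Nfkb1*. The GBP members had a median of 0.84, but this comparison was behind the choice of the family. Nothing is therefore read from setting the 2 medians side by side.

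Partners of GBPs, the IRGs and genes of inflammatory caspases and autophagy, numbered 17 tested of 18 found. In this list 10 were called higher with stimulation in WT and 10 in TNFR2-/-, where 4.59% and 5.42% of all genes were. Differences were positive for 14 partners in WT and 13 in TNFR2-/-, with medians of 1.59 and 2.01. IRG genes rose by up to 11.15 ± 0.72 (*Ifi47*, adjusted p = 1.65e-06) in WT and 10.62 ± 0.72 in TNFR2-/-, and *Casp4*, which encodes the caspase that senses cytosolic lipopolysaccharide, by 7.17 ± 0.37 and 7.09 ± 0.37. The core autophagy genes *Atg3*, *Atg5*, *Atg7*, *Atg16l1* and *Gabarapl2* stood between -0.28 and 0.14. In NS libraries 4 partners, all IRGs, were called higher in TNFR2-/-, where 1.62% of all genes were. They were *Tgtp1* (2.05 ± 0.29, adjusted p = 0.0092), *Irgm2* (1.86 ± 0.40, adjusted p = 0.023), *Igtp* (1.69 ± 0.33, adjusted p = 0.019) and *Irgm1* (1.02 ± 0.18, adjusted p = 0.016). After stimulation these 4 IRGs differed by 0.42, 0.14, -0.06 and -0.01, and *Casp1* by 1.06 ± 0.22. The other IRGs tested, *Iigp1*, *Ifi47* and *Tgtp2*, then differed by 0.85 ± 0.29, 0.40 ± 0.72 and 0.20 ± 0.45 and were not called.

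The atlastins, GTPases of the endoplasmic reticulum in the same superfamily, stood lower in St than in NS libraries, at -0.35 (*Atl1*), -0.25 (*Atl2*) and -0.19 (*Atl3*) in WT with adjusted p from 0.143 to 0.476. In TNFR2-/- they stood at -0.46, -0.45 and -0.11, of which *Atl2* fell with an adjusted p of 0.0090 but by less than the fold threshold. Around the clusters, within 300 kb, 7 of 9 protein-coding neighbors could be tested. *Kyat3*, listed as *Ccbl2*, rose by 0.62 ± 0.09 in WT (adjusted p = 0.0011) and 0.66 ± 0.09 in TNFR2-/- (adjusted p = 5.17e-04), and the other 6 (*Gtf2b*, *Pkn2*, *Pdlim5*, *Zfp951*, *Lrrc8b* and *Lrrc8c*) stood between -0.28 and 0.43 in the 2 responses. *Gbp11*, annotated as a polymorphic pseudogene beside the chromosome 5 cluster, is not one of the 10. It went from 2, 0 and 1 reads to 295, 256 and 250 in WT (4.24 ± 0.18). In TNFR2-/- it went from 0, 0 and 4 to 392, 348 and 547 reads (4.87 ± 0.18). It passed the filter on low values through its stimulated libraries, so no p is given.

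Likeness of pattern was measured as Pearson's r of log2(FPKM + 0.5) over the 12 libraries, as a description across libraries that share the stimulation. Members other than *Gbp2b* and *Gbp8* correlated with one another at 0.960 to 0.999, and *Gbp2b* with the rest at 0.595 (*Gbp2*) to 0.775 (*Gbp10*). Among 13546 genes, the most alike were *Cd274* for *Gbp6*, *Cxcl9* for *Gbp10* and *H2-Q4* for *Gbp5* (each r = 0.999), *Dexi* for *Gbp2* (0.998), *Parp14* for *Gbp3* (0.998) and *Psmb9* for *Gbp7* (0.999). *Gbp4* was closest to *Cxcl11* (0.998), *Gbp9* to *Tlr2* (0.995) and *Gbp8*, with few reads, to *Ly6a* (0.952). *Dexi*, like *Gbp2*, was higher in WT St (93.7 to 96.2 FPKM) than in TNFR2-/- St (76.7 to 82.4 FPKM). Between 312 and 433 genes exceeded 0.95 for each member except *Gbp8* (2 genes) and *Gbp2b* (0 genes). The closest to *Gbp2b* were *Asap2* (0.936), *Phrf1* (0.935) and *Sntb1* (0.932), and *Sntb1* had 163 to 180 reads in WT St and 328 to 342 in TNFR2-/- St. Mean FPKM in TNFR2-/- St was 1.42-fold (*Asap2*), 1.14-fold (*Phrf1*) and 1.98-fold (*Sntb1*) that of WT St, against 358-fold for *Gbp2b*. Likeness by r therefore does not mean a difference of like size.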

How the data were processed

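RNAseq of 12 libraries of primary OPCs was given as separate tables for NS and St libraries, with 45792 entries each. Per the methods, reads were trimmed by Trim Galore and placed on GRCm38, STAR gave the read pairs per Ensembl gene, and the authors used edgeR for differential expression. The deposited values are FPKM made by the authors. The methods name a BGISeq-500 platform, the labels Illumina protocols. Symbols used more than once (99) were left out, except *Gbp6* and *Gbp11*, whose 2 entries each were summed. 45565 symbols were used. For *Gbp6*, 1 entry was at 0 but for 1 read in 1 library.

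Whole reads were recovered from the steps of the FPKM values, within 0.02 of a whole number. The number of bases per gene behind them was unrelated to exon length (within 2-fold for 26.4% of 16012 genes), so levels between genes use reads per kilobase of GENCODE M21 exons. The main test was limma 3.58.1 in R 4.3.3 on log2(FPKM + 0.5), as 4 group means over 12 libraries with a mean-dependent prior, over the 18083 genes averaging 0.1 FPKM or more, with Benjamini-Hochberg adjustment. Intervals of read ratios are exact 95% intervals for counting error only. The p-values use the spread between libraries within groups, pooled over the 4 groups and moderated across genes. The main fit does not pair the NS and St libraries of a culture, as the replicate blocks within genotype do. Recovered totals were 26886878 to 30335265 pairs per library. The tables were joined without rescaling, since 1 number of bases per gene gave whole reads in both. Python 3.11.15, pandas 2.3.3 and matplotlib 3.10.9 were used for reads, sequences and figures.

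Replicate numbers were checked on residuals from the group means over 13556 genes. Inside each genotype, an NS library and the St library sharing its number had r of 0.34 to 0.65 (6 pairs), whereas NS and St libraries of unlike number had r of -0.45 to 0.088 (12 pairs). WT and TNFR2-/- libraries sharing a number had r of -0.055 to 0.20 (4 pairs). Numbers were therefore read as a culture within a genotype and not as pairing WT with TNFR2-/-. Simulated data were used to test the procedure.

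All 10 members are named whatever their values, with regulators, partners, atlastins, genes within 300 kb of the clusters, the 3 genes most like each member in pattern, and markers of OPCs, astrocytes, microglia, mural cells and fibroblasts, mature oligodendrocytes, endothelial cells and neurons. The values of 1 listed regulator are not reported here. Members and lists were chosen with earlier results of these data known. Alternatives were other pseudocounts, filters and scalings, limma without the mean-dependent prior, the adjusted p alone, voom on recovered reads, fits of the 6 libraries compared, replicate blocks, each library left out in turn and, added after the data were seen, values per kilobase of exon.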

Additional observations from a re-analysis of the deposited data

Results flagged for a closer look

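The response of *Gbp2b* to the cytokines differed between genotypes by 7.63 ± 0.46 (log2, SE) in limma's interaction term, with responses of 0.50, 2.09 and 1.60 in WT cultures and 9.13, 8.96 and 8.99 in TNFR2-/- cultures. The result was singled out because the same contrast gave different effects in the 2 genotypes. It was in view when the family was chosen, so it is a description and not a test.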

How the results depend on the processing

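In the stimulation comparisons, of 468 values of the 9 members in the 2 responses over 26 alternatives, 466 kept direction and side of the threshold, and the other 2 were *Gbp2b* in WT (1.40 with only the 6 libraries compared, 1.29 without WT St library 4). *Gbp2b*, *Gbp4*, *Gbp6* and *Gbp10* passed the filter through their stimulated libraries, so their share of these values is no test. Values of the remaining members use stimulated libraries in view at the choice, so the count is a description. For the NS genotype comparison the number called fell from 1 to 0 with a pseudocount of 1, with median-of-ratios scaling, with quantile normalization, with only the 6 libraries compared and with replicate number as a block, and was 0 to 1 when single libraries were left out. With that replicate block, *Gbp5* (-0.045), *Gbp9* (-0.13) and *Gbp10* (-0.10) turned negative in NS. Between stimulated genotypes the number moved from 5 to 8 with a pseudocount of 1, a filter of mean 1 FPKM or median-of-ratios scaling, to 9 with voom and to 3 with only the 6 libraries compared, and ranged from 1 to 8 when single libraries were left out. In the interaction 1 member was called, against 0 with voom, 2 with culture as a random effect (replicate block within genotype) and 1 to 2 with single libraries left out, the 2 without TNFR2-/- NS library 2. There *Gbp6* turned to -0.031 with a pseudocount of 0.1 and *Gbp4* and *Gbp6* to -0.77 and -0.73 with voom. *Tnfrsf1b* in St was 1.28 with only the 6 libraries (adjusted p = 0.065) and 1.07 to 1.48 with single libraries left out. The causes were not tested. The replicate blocks changed no other number of calls by over 1.5 times. Few reads in NS limit the folds of *Gbp2b*, *Gbp4*, *Gbp6*, *Gbp8* and *Gbp10*.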

Other observations

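Marker lists of other cells, beside those in the report, gave these median differences between TNFR2-/- and WT: mature oligodendrocytes 0.41 in NS and 0.12 in St (6 genes), OPCs -0.13 and -0.00047 (8 genes), neurons -0.33 and -0.12 (6 genes) and endothelial cells -0.13 and -0.037 (3 tested of 6). Mature oligodendrocyte markers summed to 8245 to 23427 reads in WT NS and 14097 to 22822 reads in TNFR2-/- NS libraries, and their part in the GBP values was not tested.

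In 3 TNFR2-/- cultures, the NS level of *Gbp2* (34, 256 and 136 reads) and of *Gbp2b* (21, 13 and 52 reads) did not follow the same order: the culture with the most *Gbp2* had the fewest *Gbp2b* reads. After stimulation the same 3 cultures lay between 32307 and 36341 reads for *Gbp2* and between 49174 and 66278 reads for *Gbp2b*.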
